A study of Homo sapiens with 6 samples.

Results

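The matrix metalloproteinases (MMP), ADAM and ADAMTS proteases and their tissue inhibitors (TIMP) were followed in OE33 cells, an established line from a human esophageal adenocarcinoma. Members were all protein-coding genes of the deposited count table named MMP, ADAM, ADAMTS or TIMP with a number, which gave 67 of 58735 genes, namely 24 MMP names, 20 ADAM, 19 ADAMTS and 4 TIMP genes. The rule used gene names only. One of the 24 MMP names, *MMP24OS*, matched by its spelling alone, since it is transcribed opposite to *MMP24* and encodes no metalloproteinase.

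To model acute reflux of stomach contents, the series compared 3 libraries of OE33 cells exposed to acidified bile salts (ABS) with 3 libraries of untreated OE33 cells (Ctrl). ABS cells spent 20 min in unsupplemented medium of pH 4.0 with a 200 µM bile salt cocktail and then 6 h in complete medium. All 6 cultures were grown in RPMI1640 with serum and antibiotics, and polyadenylated RNA was sequenced in bulk. Acid, bile salts and the unsupplemented medium were given together, so their parts in any difference cannot be told apart. Each group is a set of 3 biological replicates of 1 cell line, without the stromal and immune cells of a tumour.

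Metalloproteinases are zinc enzymes made with a propeptide that keeps them inactive. MMPs cleave collagens, laminins and other matrix proteins, either as secreted enzymes or anchored in the plasma membrane. ADAMs are membrane proteins, several of which release the outer parts of growth factors, cytokines and adhesion molecules, and ADAMTS enzymes are secreted and process proteoglycans and procollagens. TIMPs bind the active site and block these enzymes to different degrees. In esophageal and gastric epithelium, *MMP7*, *ADAM9*, *ADAM10* and *ADAM17* are epithelial products, whereas *MMP2*, *MMP3*, *TIMP3* and several ADAMTS genes are best known from fibroblasts.

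The feature that joins these enzymes and that their names do not state is the zinc-binding site of the catalytic domain. A search of the longest coding transcript of each gene in GENCODE release 29 for codons of this site (histidine and glutamate, then a histidine after 2 and another after 5 further codons) found it in 23 of 23 MMP genes, leaving out *MMP24OS*, in 19 of 19 ADAMTS genes and in 12 of 20 ADAM genes. The other 8 ADAM genes, all 4 TIMP genes and *MMP24OS* lacked it. Over all 19580 protein-coding genes with a coding transcript whose coding start is annotated, 88 (0.449%) held the pattern. The 33 bases of the site are shown for the members of the main results, 5′ to 3′ in the coding strand, with the GRCh38 positions of its first and last base and the codons for histidine and glutamate in capitals.
ADAMTS15, chr11:130461612-130462109: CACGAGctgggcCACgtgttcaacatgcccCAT
ADAMTS9, chr3:64651148-64654369: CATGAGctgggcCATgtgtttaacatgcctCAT
ADAMTS16, chr5:5191774-5200147: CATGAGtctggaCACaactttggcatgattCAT
ADAM15, chr1:155056995-155057027: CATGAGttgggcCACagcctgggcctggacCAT
ADAM10, chr15:58627881-58633225: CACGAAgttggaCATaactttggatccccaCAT
MMP7, chr11:102523343-102523375: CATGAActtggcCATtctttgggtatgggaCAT
MMP15, chr16:58040563-58040595: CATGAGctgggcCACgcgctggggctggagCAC
MMP1, chr11:102795549-102795581: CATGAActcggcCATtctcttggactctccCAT
The sites of *ADAMTS15* and *ADAMTS9* were identical at 29 of 33 bases, and those of *ADAMTS15* and *ADAMTS16* at 19 of 33. The sites of *MMP7* and *MMP1* shared 24 of 33 bases. Only coding sequence was searched, so all sites lie in coding exons by design. An intron splits the site in 19 of 19 ADAMTS genes, in 1 of the 12 ADAM genes with a site (*ADAM10*) and in 0 of 23 MMP genes.

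Untreated OE33 cells transcribed a narrow part of these families. Of the 67 members, 22 (32.8%) had 0 counts in all 6 libraries, against 23.8% of all protein-coding genes, 17 had some counts but too few to be tested, and 28 passed the filter on low counts. At least 1 TPM (a transcript abundance, the count divided by gene length and scaled to the same total in each library) was reached in every Ctrl library by 19 members (28.4%), against 54.0% of protein-coding genes. Library totals lay between 23414287 and 25235686 counts in ABS cells and between 22145676 and 23683950 in Ctrl cells. A count of 3, the limit that a count of 0 allows, was 0.119 to 0.128 CPM (a count scaled by its library's total) in ABS libraries and 0.127 to 0.135 CPM in Ctrl libraries, which covers counting error only.

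The cells matched their epithelial label. The summed level of 7 epithelial markers (keratins, *EPCAM*, *CDH1* and *CLDN4*) was 26437 to 27146 TPM in ABS libraries and 26417 to 27895 TPM in Ctrl libraries. Of 6 fibroblast markers, *COL1A2* and *DCN* were at 0 in every library, and the 6 summed to 1.01 to 1.88 TPM in ABS and 1.03 to 1.24 TPM in Ctrl libraries. Of 6 immune markers *PTPRC* and *CD3E* were at 0, with sums of 11.8 to 14.0 TPM in ABS and 11.6 to 14.0 TPM in Ctrl libraries, most of it *CD14*. The 4 endothelial markers summed to at most 0.121 TPM in any library. On the second principal component of all tested genes, replicate 3 scored −29.0 in ABS and −19.0 in Ctrl cells, apart from the remaining libraries at 2.73 to 18.5, so values without replicate 3 are given beside the results it touches.

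*MMP7*, the matrilysin, which encodes a small secreted enzyme without a hemopexin domain, had the highest level of all members. It lay at 790, 767 and 889 TPM in ABS replicates 1 to 3, against 807, 768 and 720 TPM in Ctrl replicates 1 to 3. It supplied 80.5% ± 1.1 of the summed MMP level in ABS cells and 79.0% ± 1.6 in Ctrl cells (SD, n = 3 each). The groups overlapped, and the log2 fold change of ABS over Ctrl was 0.07 ± 0.08 (SE, edgeR adjusted p = 0.845), reversing to −0.05 within replicates 1 and 2.

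**Figure D1:**
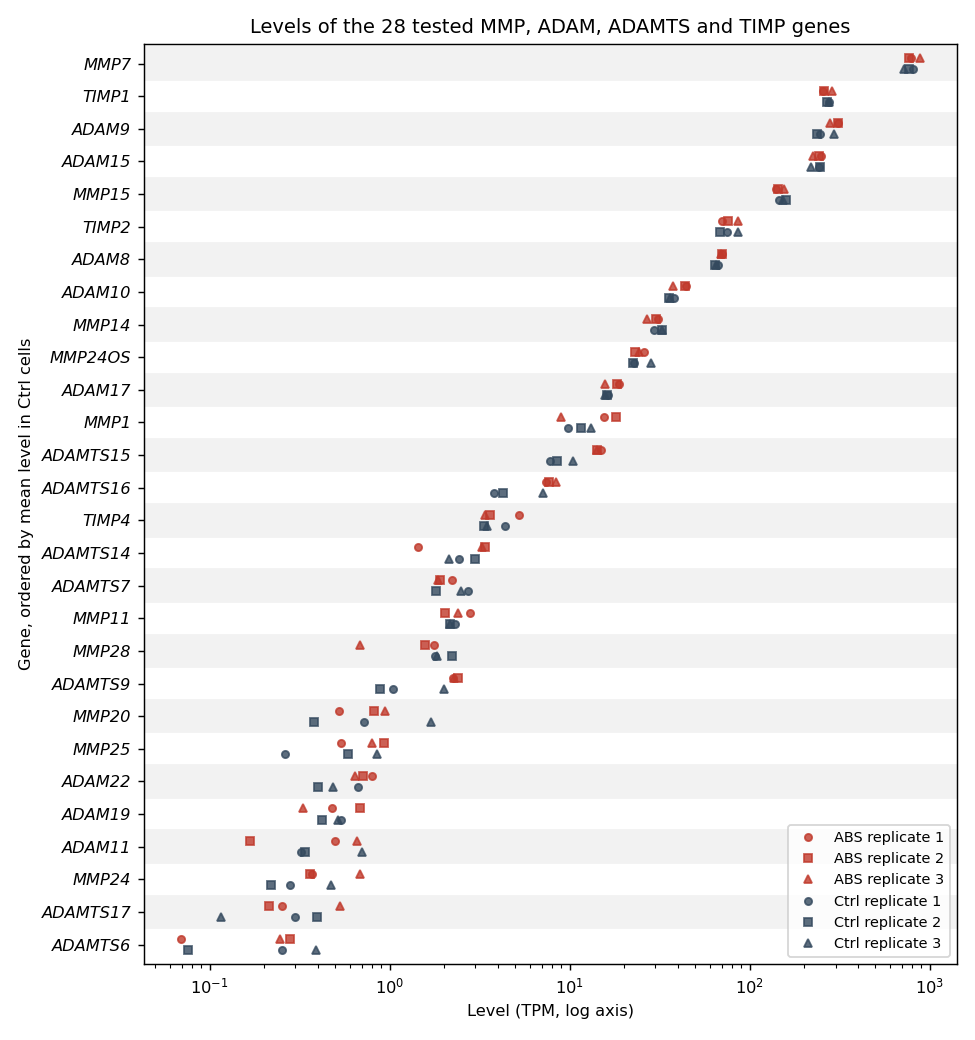
Level in TPM, on a log axis, of the 28 members that passed the filter, with the 3 ABS libraries of each gene above its 3 Ctrl libraries and genes ordered by their mean in Ctrl cells. *MMP7* stands above all others in every library, and *ADAMTS15*, *ADAMTS16*, *ADAMTS9* and *ADAM8* are the genes whose ABS libraries all lie above their Ctrl libraries on this scale.

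The next levels belonged to an inhibitor and to ADAM sheddases. *TIMP1*, a secreted inhibitor of most MMPs, had 254, 258 and 286 TPM in ABS libraries, against 275, 271 and 278 TPM in Ctrl libraries. *ADAM9*, a widely expressed sheddase, had 311, 309 and 279 TPM in ABS libraries, against 246, 237 and 295 TPM in Ctrl libraries. *ADAM15*, which carries an integrin-binding motif in its disintegrin domain, had 249, 244 and 226 TPM in ABS libraries, against 242, 247 and 219 TPM in Ctrl libraries. In Ctrl cells the order from *MMP7* down to *TIMP1* was clear in every library, whereas *TIMP1* and *ADAM9*, and *ADAM9* and *ADAM15*, overlapped between libraries. From *ADAM15* down through *MMP15*, *TIMP2*, *ADAM8*, *ADAM10*, *MMP14*, *MMP24OS*, *ADAM17* and *MMP1*, each gene lay above the next in all Ctrl libraries, whereas *MMP1* and *ADAMTS15* overlapped. *ADAM9* and *ADAM15* together made 80.3% ± 0.2 of the summed ADAM level in ABS cells and 80.5% ± 0.7 in Ctrl cells (SD, n = 3 each).

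Below them stood the membrane-anchored enzymes and the other inhibitors. *MMP15*, a membrane-type MMP, averaged 146 ± 8.35 TPM in ABS cells and 152 ± 6.65 TPM in Ctrl cells, and *MMP14*, the membrane-type activator of pro-MMP2, 29.3 ± 2.17 TPM in ABS cells and 31.6 ± 2.04 TPM in Ctrl cells (SD, n = 3 each, as for the values that follow). *TIMP2*, which forms a complex with MMP14, averaged 77.5 ± 8.12 TPM in ABS cells and 76.2 ± 9.1 TPM in Ctrl cells. *ADAM8*, an ADAM best known from leukocytes, averaged 70.2 ± 0.507 TPM in ABS cells and 65.5 ± 1.5 TPM in Ctrl cells, apart in TPM but overlapping in scaled counts. *ADAM10*, the main sheddase of Notch receptors and E-cadherin, averaged 42.0 ± 3.75 TPM in ABS cells and 36.6 ± 1.31 TPM in Ctrl cells, and *ADAM17*, the sheddase of TNF and several EGF receptor ligands, 17.7 ± 1.64 TPM in ABS cells and 16.1 ± 0.3 TPM in Ctrl cells. The gene lengths behind these levels are those of the deposited table, which for *ADAM10* is 16168 bases, so a gene that uses only its shorter transcripts is set too low. In *ADAM17*, 13.6% of exon bases were shared with other annotated genes, mostly *IAH1* on the opposite strand, and the strand setting of the counting is not given in the sources used here.

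*TIMP4* was low, at 5.22, 3.59 and 3.37 TPM in ABS libraries and 4.39, 3.35 and 3.49 TPM in Ctrl libraries, and *TIMP3*, the inhibitor that binds to the matrix, had 0 counts in all 6. The ratio of summed MMP to summed TIMP level, both in TPM, was 2.99, 2.86 and 2.89 in ABS libraries and 2.82, 2.86 and 2.53 in Ctrl libraries, with ABS replicate 1 the highest and Ctrl replicate 3 the lowest. It sets RNA levels side by side and says nothing of protein or enzyme activity. Both gelatinases were near the limit of detection: *MMP2* had 0 counts in every library, and *MMP9* had 3 in ABS and 1 in Ctrl libraries in all. Among the stromelysins and their relatives, *MMP3* had 0 counts, *MMP10* had 25 in ABS and 22 in Ctrl libraries, and *MMP11* averaged 2.41 ± 0.369 TPM in ABS cells and 2.22 ± 0.092 TPM in Ctrl cells.

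Neighbouring members differed in level in some places and were alike in others. On chromosome 11, 9 MMP genes lie in 1 cluster of 435 kb (chr11:102520508-102955734, GRCh38, all on the minus strand). *MMP7* at its centromeric end held 37236 counts in ABS and 33615 in Ctrl libraries, *MMP1* 546 in ABS and 429 in Ctrl libraries, and *MMP20*, the enamel enzyme, 38 in ABS and 45 in Ctrl libraries. The remaining members of the cluster, among them the macrophage enzyme *MMP12* and the neutrophil collagenase *MMP8*, had 0 counts in every library in 4 cases and few in *MMP10* and *MMP13*. *ADAM9*, with 40606 counts in ABS and 33859 in Ctrl libraries, ends 1845 bases before *ADAM32*, a gene known from testis, which had 10 in ABS and 8 in Ctrl libraries. *ADAMTS8*, which lies 19980 bases from *ADAMTS15* on chromosome 11, had 0 counts in all libraries. Other neighbours were alike. *ADAMTS1* and *ADAMTS5*, and *ADAM18* and *ADAM2*, had 0 counts in every library. *ADAM28* and *ADAM7*, and *ADAM21* and *ADAM20*, each had at most 3 counts in either group. Of 23 members with another member within 100 kb, 5 reached 1 TPM in every Ctrl library, against 14 of the 44 other members. This difference was not tested.

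**Figure D2:**
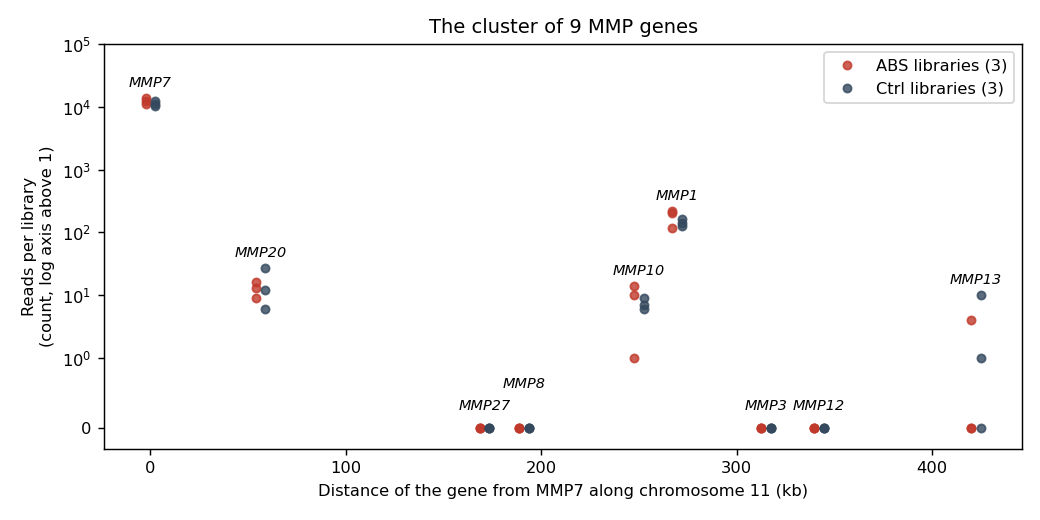
Counts per library of the 9 MMP genes on chromosome 11 against the distance of each gene from *MMP7* in kb, with the 3 ABS libraries drawn left of the 3 Ctrl libraries and a log axis above 1. *MMP7* and *MMP1* stand out from neighbours with few or 0 counts, in both groups alike.

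The bases before the start of *MMP7* and *MMP10* are shown. They were chosen since both genes hold a motif match at the same distance from their start and differ in level by far. The motif is a loose form of the AP-1 element, in which N is any base. The match reads TGAGTCA in *MMP7* and TGAATCA in *MMP10*, so these genes do not hold the same element. The motif TGANTCA, which reads the same on both strands and was searched in windows of 250 bases before to 50 after the start (RefSeq, GRCh38.p14), was present in 4 of 41 member promoters in the table and in 7.71% of all 35116 promoters. The 150 bases before each start are given 5′ to 3′ on the minus strand, with the match in capitals.
MMP7, chr11:102530748-102530897: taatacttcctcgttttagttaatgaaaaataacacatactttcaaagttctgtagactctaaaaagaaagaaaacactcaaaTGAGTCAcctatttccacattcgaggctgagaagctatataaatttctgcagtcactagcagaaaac
MMP10, chr11:102780629-102780778: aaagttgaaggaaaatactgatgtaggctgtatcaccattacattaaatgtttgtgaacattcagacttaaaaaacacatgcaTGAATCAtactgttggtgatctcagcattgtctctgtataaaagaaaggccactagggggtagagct
Both matches begin at position −67. *MMP7* averaged 816 ± 64.8 TPM in ABS cells and 765 ± 43.5 TPM in Ctrl cells, and *MMP10* 0.709 ± 0.560 TPM in ABS cells and 0.662 ± 0.138 TPM in Ctrl cells (SD, n = 3 each). Whether the matches bear on these levels was not tested. The other matches, both TGAATCA, lay before *MMP20*, which was low, and *ADAMTS12*, which had 0 counts. Not every member had an entry in the promoter set, and *ADAMTS10* was entered more than once. *MMP1*, *ADAMTS15*, *ADAMTS16* and *ADAMTS9* had no entry, so their promoters were not searched for the motif. A match describes the letters only.

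After ABS, 1 of the 28 tested members rose and 0 fell. This was *ADAMTS15*, which encodes a secreted protease of the proteoglycanase branch that cleaves versican and aggrecan. Over all 13768 tested genes, 0.37% were called higher and 0.0654% lower by the same test, edgeR's quasi-likelihood test with Benjamini-Hochberg adjustment over all tested genes and a threshold of 0.05. DESeq2 called the same single member higher and 0 lower, against 1.34% and 0.581% of all tested genes, and limma-voom did likewise against 0.378% and 0.0726%. The median log2 fold change was 0.08 over the 28 members and −0.00369 over all tested genes. Members with a positive log2 fold change numbered 19 and those with a negative one 9. At an unadjusted p under 0.05, 4 members were higher and 0 lower, against 5.61% and 4.14% of all tested genes.

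*ADAMTS15* (ENSG00000166106, chr11:130448974-130476641, plus strand) lay at 23.0, 22.1 and 21.2 CPM in ABS libraries, against 12.2, 13.5 and 15.3 CPM in Ctrl libraries. CPM here carries edgeR's TMM scaling between libraries. Every ABS library lay above every Ctrl library, and Ctrl replicate 3 was the Ctrl library closest to them. The mean was 22.1 ± 0.920 CPM in ABS cells and 13.7 ± 1.52 CPM in Ctrl cells (SD, n = 3 each), a 1.62-fold rise with a log2 fold change of 0.69 ± 0.12 (SE, edgeR adjusted p = 0.0280). In bulk RNA, more cells with the transcript and more transcript per cell cannot be told apart. The call ended without Ctrl replicate 1 (adjusted p = 0.179), Ctrl replicate 2 (0.222), ABS replicate 1 (0.203) or ABS replicate 2 (0.122), and with scaling by library size alone (0.0610), while the log2 fold change stayed between 0.62 and 0.81 in all 15 alternatives. Replicates 1 and 2 gave a log2 difference of 0.81 and the replicate 3 pair, with 1 library per group, one of 0.47.

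*ADAMTS16* and *ADAMTS9* also had all ABS libraries above all Ctrl libraries, without passing the test. *ADAMTS16* (ENSG00000145536, chr5:5140330-5320304, plus strand), which in rodents has been linked to blood pressure and kidney development, lay at 11.8, 12.3 and 12.9 CPM in ABS libraries, against 6.16, 7.01 and 10.8 CPM in Ctrl libraries. *ADAMTS9* (ENSG00000163638, chr3:64515654-64688000, minus strand), a versican-cleaving protease that shares 1.63% of its exon bases with an antisense gene, lay at 6.49, 7.04 and 6.40 CPM in ABS libraries, against 3.06, 2.64 and 5.54 CPM in Ctrl libraries. In both genes Ctrl replicate 3 stood well above the other Ctrl libraries and close to the ABS libraries. The log2 fold change was 0.62 ± 0.19 for *ADAMTS16* (SE, edgeR adjusted p = 0.227) and 0.82 ± 0.26 for *ADAMTS9* (adjusted p = 0.234). Without Ctrl replicate 3 they passed, at 0.90 (edgeR adjusted p = 0.00607) and 1.22 (0.00833). They also passed within replicates 1 and 2, in a fit that called 7.83% of its tested genes higher. With all 6 libraries and a model term for replicate 3 they passed too, at 0.65 (adjusted p = 0.0250) and 0.87 (adjusted p = 0.0411). The replicate 3 pair differed by 0.25 for *ADAMTS16* and 0.21 for *ADAMTS9* on the log2 scale.

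These were the 3 tested members, 10.7% of 28, whose groups did not overlap with ABS above, against 7.57% of all tested genes, and 0 members had ABS below, against 6.95%. *ADAMTS15* and *ADAMTS9* were the tested members among 7 ADAMTS proteoglycanases. Of the others, *ADAMTS1*, *ADAMTS5*, *ADAMTS8* and *ADAMTS20* had 0 counts in every library and *ADAMTS4* had 1 count in all. The summed ADAMTS level was 28.6, 30.3 and 31.3 TPM in ABS libraries, against 18.7, 19.0 and 24.9 TPM in Ctrl libraries. *ADAMTS15*, *ADAMTS16* and *ADAMTS9* supplied 82.0% ± 3.3 of it in ABS cells and 72.6% ± 5.3 in Ctrl cells (SD, n = 3 each). These 3 genes were set together because their ABS libraries lay above their Ctrl libraries. Their larger share in ABS cells follows from that choice and is no separate result. The higher summed level, most of which they supply, is no separate result either. Of the other tested ADAMTS genes, *ADAMTS7*, a protease of cartilage oligomeric matrix protein, gave −0.24 ± 0.21 for ABS minus Ctrl on the log2 scale (SE, edgeR adjusted p = 0.786). The procollagen N-proteinase *ADAMTS14* gave 0.07 ± 0.31 (0.970), *ADAMTS6* −0.28 ± 0.65 (0.942) and *ADAMTS17* 0.26 ± 0.56 (0.935). The SEs of *ADAMTS6* and *ADAMTS17* are near the size of the *ADAMTS15* change, and these genes were not tested against it.

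**Figure D3:**
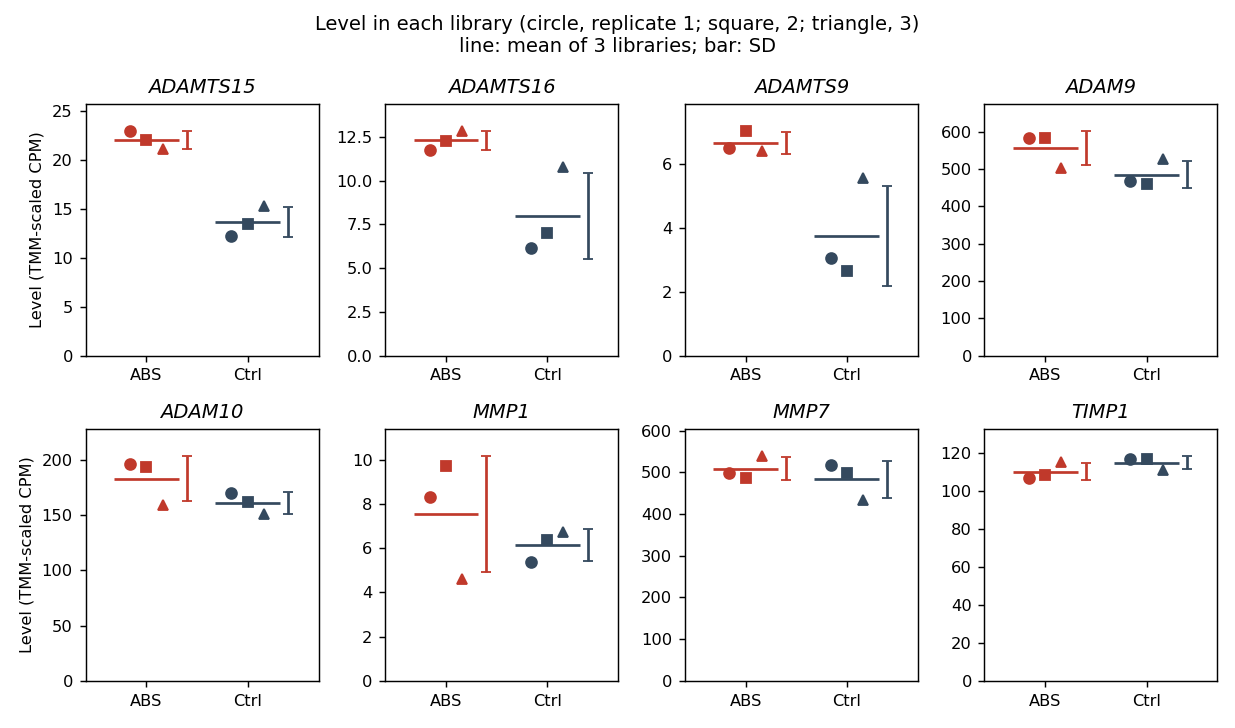
Level in TMM-scaled CPM of 8 members in each library, ABS left of Ctrl, with the mean of 3 libraries as a line and the SD as a bar. In *ADAMTS15*, *ADAMTS16* and *ADAMTS9* all ABS libraries lie above all Ctrl libraries, with the triangle of Ctrl replicate 3 nearest to them, and in *ADAM9*, *ADAM10* and *MMP1* ABS replicate 3 lies below the other ABS libraries.

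Among the ADAM genes 0 of 8 tested passed the threshold with edgeR, DESeq2 or limma-voom, and 1, *ADAM9*, had an unadjusted p under 0.05 with edgeR. Of all tested genes, edgeR called 0.37% higher and 0.0654% lower, and 5.61% and 4.14% had an unadjusted p under 0.05. The counts among 8 genes do not set the ADAM genes apart from these shares. *ADAM9* lay at 584, 582 and 503 CPM in ABS libraries, against 468, 459 and 528 CPM in Ctrl libraries, so that Ctrl replicate 3 was above ABS replicate 3. Its log2 fold change was 0.20 ± 0.08 (SE, adjusted p = 0.447). *ADAM10* lay at 196, 193 and 159 CPM in ABS libraries, against 170, 162 and 151 CPM in Ctrl libraries, with a log2 fold change of 0.18 ± 0.09 (adjusted p = 0.546). Within replicates 1 and 2 both passed, at 0.33 (adjusted p = 3.48e-06) and 0.23 (0.00270), in a fit that called 7.83% of its tested genes higher, whereas the replicate 3 pair differed by −0.07 and 0.08. The log2 fold change was 0.12 ± 0.10 for *ADAM17* (edgeR adjusted p = 0.773), 0.08 ± 0.07 for *ADAM8* (0.779) and 0.00 ± 0.09 for *ADAM15* (0.994). *ADAM22*, which lacks the zinc-binding site and serves as a receptor in neurons, had 66, 54 and 52 counts in ABS libraries, against 53, 30 and 37 in Ctrl libraries, with a log2 fold change of 0.45 ± 0.31 (adjusted p = 0.701).

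Among the MMPs 0 of 9 tested genes, *MMP24OS* left out, passed with edgeR, DESeq2 or limma-voom, and 0 had an unadjusted p under 0.05 with edgeR. The edgeR shares of all tested genes were 0.37% called higher and 0.0654% lower, and 5.61% and 4.14% at that unadjusted p. Counts of 0 in 9 genes do not set the MMPs apart from these shares. *MMP1*, the interstitial collagenase, which cleaves fibrillar collagen, lay at 8.31, 9.71 and 4.63 CPM in ABS libraries, against 5.36, 6.37 and 6.74 CPM in Ctrl libraries. ABS replicates 1 and 2 were the highest of all libraries and ABS replicate 3 the lowest, so the groups overlapped. The log2 fold change was 0.29 ± 0.24 (SE, adjusted p = 0.770). Within replicates 1 and 2 it was 0.62 (edgeR adjusted p = 0.0294), in a fit that called 7.83% of its tested genes higher. In the replicate 3 pair the difference was −0.54. In *MMP1*, 7.61% of exon bases were shared with the pseudogene *WTAPP1* on the opposite strand.

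The membrane-type enzymes did not pass the test. *MMP14* lay at 37.7, 36.6 and 31.4 CPM in ABS libraries, against 36.0, 41.0 and 37.9 CPM in Ctrl libraries, with a log2 fold change of −0.12 ± 0.10 (edgeR adjusted p = 0.768). For *MMP15* it was −0.08 ± 0.07 (adjusted p = 0.803). *MMP28*, epilysin, an MMP found in keratinocytes and other epithelia, had 34, 28 and 13 counts in ABS libraries, against 33, 39 and 33 in Ctrl libraries. Its log2 fold change of −0.55 ± 0.42 (adjusted p = 0.751) was the lowest of the tested members, and without ABS replicate 3 it was −0.22. *MMP24* and *MMP25* were tested at fewer than 30 counts per library and share 21.8% and 35.2% of their exon bases with genes on the opposite strand, and reads of the genes cannot be told apart there without strand. Their log2 fold changes were 0.53 (edgeR adjusted p = 0.823) and 0.41 (0.864), and that of *MMP24OS*, which overlaps *MMP24*, was −0.02 (0.975).

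The inhibitors did not pass either. The log2 fold change was −0.06 ± 0.07 for *TIMP1* (SE, edgeR adjusted p = 0.851), 0.01 ± 0.08 for *TIMP2* (0.985) and 0.10 ± 0.33 for *TIMP4* (0.959). Of the 3 tested TIMP genes, 0 had an unadjusted p under 0.05 with edgeR, and 0 passed with DESeq2 or limma-voom. With edgeR, 5.61% of all tested genes were higher and 4.14% lower at that unadjusted p, and 0.37% and 0.0654% were called. Counts of 0 in 3 genes do not set the TIMP genes apart from these shares. *TIMP4* had the widest SE of the 3. Some exon bases of *TIMP2* (10.0%) and *TIMP4* (10.3%) are shared with other annotated genes.

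**Figure D4:**
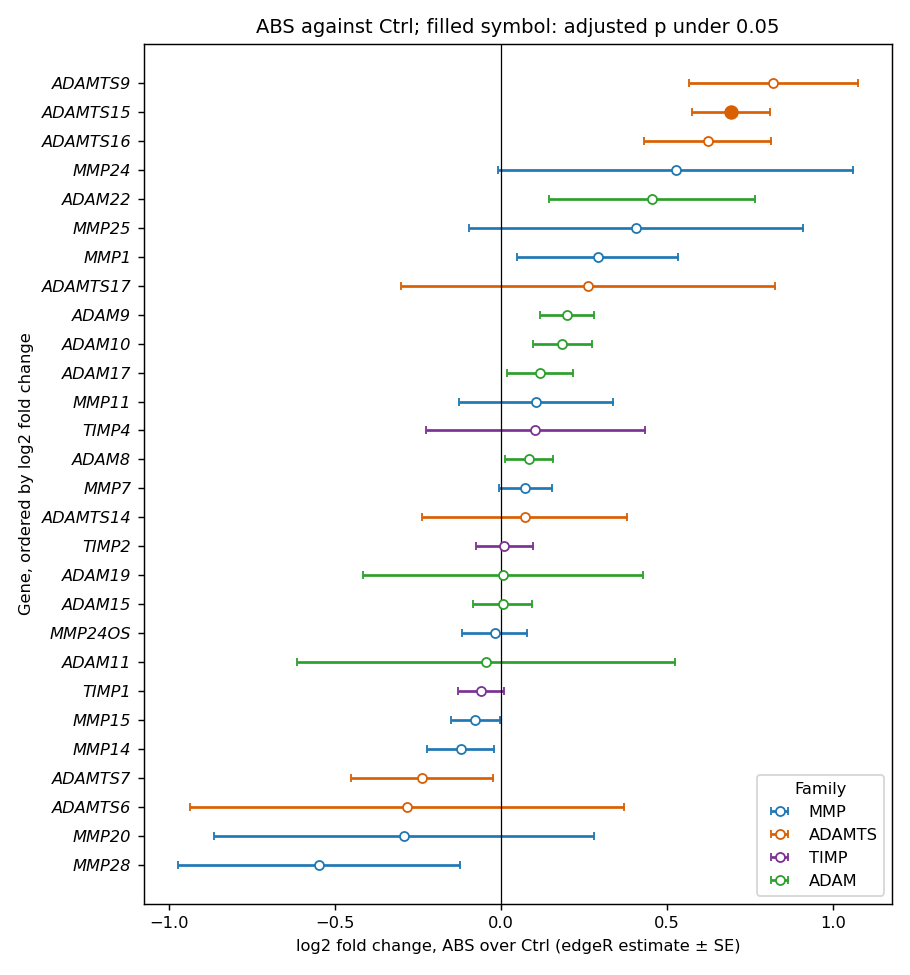
Log2 fold change of ABS over Ctrl with its SE from the edgeR fit over all genes, for the 28 tested members coloured by family, with a filled symbol for an adjusted p under 0.05. *ADAMTS9*, *ADAMTS15* and *ADAMTS16* are the highest, and *ADAMTS15* is the one that passed.

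**Figure D5:**
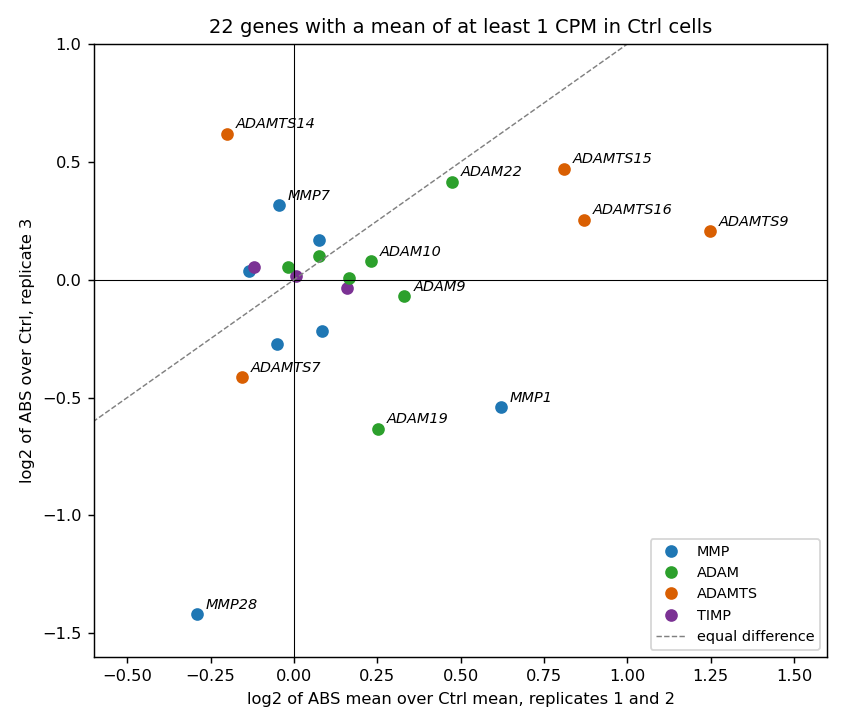
Log2 difference of ABS over Ctrl in replicates 1 and 2 against that in the replicate 3 pair, for the 22 tested members with a mean of at least 1 CPM in Ctrl cells, with a dashed line of equal difference. *ADAMTS15*, *ADAMTS16* and *ADAMTS9* are positive in both, and *MMP1* and *ADAM19* have opposite signs.

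Of 22 tested members with a mean of at least 1 CPM in Ctrl cells, 10 (45.5%) had opposite signs in replicates 1 and 2 and in the replicate 3 pair, against 47.6% of all tested genes at that level, so the members' share is near that of all genes. This contrast was not tested, since the replicate 3 pair has 1 library per group. Members called higher numbered 3 without Ctrl replicate 3 (2.27% of all tested genes), 3 with a model term for replicate 3 (2.24%), 3 without the filter on low counts (1.17%) and 1 without ABS replicate 3 (1.33%). Each of these sets was drawn from *ADAMTS15*, *ADAMTS16* and *ADAMTS9*.

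Members below the filter had at most 14 counts in any library. *ADAM12*, known from placenta and tumour stroma, had 2, 7 and 2 counts in ABS libraries and 0 in every Ctrl library. The ratio of the group sums had a 95% exact binomial lower limit of 2.37 for counting error only, and edgeR without a filter gave an adjusted p of 0.607. *MMP17*, a glycosylphosphatidylinositol-anchored MMP, had 6, 3 and 1 counts in ABS libraries and 0, 0 and 1 in Ctrl libraries, so the groups overlapped. The sums of 10 and 1 gave a ratio of 9.45, with a 95% exact binomial interval of 1.34 to 410 for counting error only. *MMP13*, a collagenase best known from cartilage, had 4, 0 and 0 counts in ABS libraries and 10, 1 and 0 in Ctrl libraries. The sums of 4 and 11 gave a ratio of 0.344 with an interval of 0.0798 to 1.16, which rests almost wholly on replicate 1. These 3 genes were singled out after their values were seen.

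Genes that activate, guide or serve these proteases were read from a list of 48 names, 47 of which are in the table. Of 33 tested, 1 rose and 0 fell, against 0.37% and 0.0654% of all tested genes, with a median log2 fold change of 0.01. The riser was *TGFA*, which encodes an EGF receptor ligand released by *ADAM17*, at 324, 320 and 260 CPM in ABS libraries and 190, 184 and 215 CPM in Ctrl libraries (log2 fold change 0.62 ± 0.09, SE, edgeR adjusted p = 0.0143). Its call ended without Ctrl replicate 1 (adjusted p = 0.113), Ctrl replicate 2 (0.144), ABS replicate 1 (0.159) or ABS replicate 2 (0.105). The next smallest p-values belonged to *EREG*, another EGF receptor ligand, with a log2 difference of 0.42 (edgeR adjusted p = 0.103), *TSPAN5*, a tetraspanin that escorts ADAM10, with −0.37 (0.125), *FRMD8*, which stabilises the ADAM17 complex, with 0.28 (0.150), and *IL6R*, an interleukin receptor shed by ADAM10 and ADAM17, with 0.48 (0.279). The highest Ctrl levels in this list were those of *BSG*, which encodes an inducer of MMPs, at 497 ± 14.4 TPM in ABS cells and 520 ± 7.01 TPM in Ctrl cells, the ligand *AREG* at 466 ± 74.9 TPM in ABS cells and 386 ± 60.6 TPM in Ctrl cells, *EREG*, *CDH1*, which encodes the ADAM10 substrate E-cadherin, and *TSPAN15*. The log2 difference in replicates 1 and 2 was 0.78 for *TGFA*, 0.60 for *EREG*, 0.66 for *IL6R* and 0.51 for *AREG*. In the replicate 3 pair the same genes gave 0.28, 0.04, 0.13 and −0.25. *TSPAN5* gave −0.28 in replicates 1 and 2 and −0.56 in the replicate 3 pair, and *FRMD8* 0.27 and 0.32. *RECK*, a membrane-anchored MMP inhibitor, had 0 counts in every library.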

How the data were processed

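Gene-level RNA-seq counts of 6 libraries were used, 3 of ABS and 3 of Ctrl cells, grouped by the titles. The deposited table gives whole-number counts, not normalized, with a length for each gene. HISAT2 2.0.5, featureCounts 1.5.0-p3 and GRCh38 are named in the submitters' processing notes, per the labels, and handling of strand and multi-mapping reads is not given in the sources used here. All 58735 gene identifiers matched GENCODE release 29 in start, end and strand. TPM was computed from the deposited counts and lengths. edgeR 4.0.16 in R 4.3.3 kept genes with filterByExpr (minimum count 10, total 15), scaled by TMM and compared ABS with Ctrl in a model of group alone. Adjustment ran over all 13768 tested genes, and the SE is the log2 fold change over the square root of F. DESeq2 1.42.0 and limma-voom (limma 3.58.1) were alternatives. Members with the 10 smallest p, the 10 highest Ctrl levels, tested TIMPs and any called in an alternative were named in full. The gene families, the lists and the alternatives were chosen with earlier results of these data known, and within the families every matching name was taken. Deviations from group means correlated at 0.04 and 0.03 for replicate numbers 1 and 2 and at 0.17 for number 3. At number 3, ABS and Ctrl were closer to each other (chi-square per degree of freedom 7.14) than to their own groups (14.7 to 19.1). The labels do not say whether libraries of the same number were paired, and correlations over 3 libraries per group cannot decide it.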

Additional observations from a re-analysis of the deposited data

How the results depend on the processing

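The count of called members (1) and of all called genes (60) was 0 and 35 with library size alone, 3 and 409 without a filter, 3 and 465 when replicate 3 had its own model term, and 6 and 1813 within replicates 1 and 2. DESeq2 called 1 member and 264 genes. With a replicate block 2 members and 350 genes passed. The labels do not say whether the replicate numbers pair the libraries, and libraries did not all correlate best with their own number. Leaving out 1 library gave 0 to 3 members and 12 to 438 genes. RLE scaling, limma-voom and robust dispersion each called 1 member. The cause of these moves was not tested. *ADAMTS16* also passed with the block (adjusted p = 0.0359). Of 270 fits of 18 named members under 15 alternatives, 238 kept direction and side of the threshold, 12 gained a call, 5 lost one (all *ADAMTS15*) and 15 reversed, the last in 5 members without a call. Reversed log2 fold changes were −0.0451 (*MMP7*), −0.0175 (*ADAM15*) and 0.0860 (*MMP24OS*) within replicates 1 and 2 and −0.00697 (*ADAM15*) and −0.00022 (*TIMP2*) with library size alone. With single libraries left out the ranges were −0.00193 to 0.124 for *MMP7*, −0.0793 to 0.0669 for *ADAM15*, −0.0492 to 0.0675 for *TIMP2*, −0.0715 to 0.0575 for *MMP24OS* and −0.129 to 0.248 for *TIMP4*. Members at 1 TPM in every Ctrl library numbered 19, and 17 to 21 at 2 or 0.5 TPM, at 1 CPM or without a Ctrl library. For the related genes, whose alternatives were added after seeing the data, called genes numbered 0 to 8. Depth limits members with few counts: SEs of the log2 fold change reached 0.65 (*ADAMTS6*).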
